A study of Homo sapiens with 2 samples.

Results

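The genes described here are the 121 protein-coding genes of chromosome 14 whose start lies between 64 and 90 Mb of the long arm on genome build hg18 and that had at least 100 reads over both libraries. They were taken from 14186 protein-coding genes with that number of reads in the series. The stretch was chosen because its genes had been seen to be lower in the drug-resistant line, so every ratio below describes the values that chose it and none is a test. Of 159 protein-coding genes listed between these positions, 5 solute carrier, mismatch repair and fucosyltransferase genes were left out by the rule, and 33 more had too few reads. Those 33 summed to 553 reads in the MIP101 library and 225 in the MIP/5FU library, and 5 of them had 0 in both. Nearest below the minimum were AL133445.4, with 68 and 24 reads, and ADAM20, with 59 and 32. Nearest above it were AC007956.5, with 94 and 62 reads, and C14orf181, with 89 and 86.

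The study sequenced polyadenylated RNA of 2 cultured human cell lines, with 1 library of each. MIP101 is a colorectal cancer line from a liver metastasis and is sensitive to 5-fluorouracil (5-FU), a pyrimidine analog used in chemotherapy. MIP/5FU is 1 clone selected from MIP101 under increasing 5-FU, with a 10-fold higher IC50, and its medium held 5 µM of the drug until about 48 hours before RNA isolation. MIP101 was grown for the same 48 hours without drug and was not kept in it. The MIP101 library had 200141071 reads on genes and the MIP/5FU library 109693681. Wherever a pair of values is given below, MIP101 comes first. All 11 epithelial markers examined had reads in both libraries (8214 and 8987 RPM in sum, RPM being reads scaled to 1000000 gene reads), and 8 hepatocyte markers summed to 7.86 and 5.74 RPM, with 2 and 3 of them at 0. Of the 11, 10 and 9 reached 1 RPM, and KRT8 (3309 and 3844) and KRT18 (2790 and 3307) made most of their sum. Single markers differed either way, such as KRT20 (2.86 and 19.4 RPM) and VIL1 (125 and 53.4). With 1 library per line there is no replicate check, and a difference between the lines cannot be told apart from one between cultures or library preparations. Intervals are exact binomial 95% intervals for counting error only. They hold no variation between cultures or library preparations, and the amplified reads carried no molecular identifiers. Both make them too narrow as errors of the RNA itself.

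Nearly all genes of human chromosome 14 lie on its long arm, 14q. Neighbours on a chromosome arm usually have unrelated tasks, and 14q holds, side by side, transcription factors such as FOS and MAX, the growth factor gene TGFB3 and many housekeeping genes. Some neighbours are arranged head to head, on opposite strands with their start sites close together, and such pairs can share a promoter region.

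Most of these genes had a smaller share of the reads in MIP/5FU than in MIP101. Ratios are MIP/5FU over MIP101, as log2 of each gene's share of gene reads after adding 0.5 reads. The median log2 ratio over the 121 genes was -0.38, or 1.30-fold lower, with quartiles at -0.57 and -0.18. Together the genes took 6478 and 4825 RPM, 1.34-fold lower in MIP/5FU. Of the 121, 103 (85.1%) lay below 0, against 47.2% of all protein-coding genes. A gene was counted as lower or higher where its log2 ratio was at least 0.32 from 0 with an interval excluding 0. Counted as lower were 73 (60.3%), against 18.5% of all protein-coding genes, and as higher 8 (6.61%), against 19.3%. The other 40 were neither. At least 2-fold lower were 5 genes (4.13%), against 3.24% of all protein-coding genes, and 1 (0.826%) was at least 2-fold higher, against 2.51%. Since these ratios chose the stretch, nothing is read from how far those shares stand apart. Below, a gene is called lower or higher only where it passed that count.

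The rest of chromosome 14 was nearly as low. Its 317 genes had a median of -0.33, a difference of -0.05 from the stretch, and 83.0% of them lay below 0. Of the 317, 161 (50.8%) were counted as lower and 26 (8.20%) as higher, and 15 (4.73%) were at least 2-fold lower and 7 (2.21%) at least 2-fold higher. The 224 genes before 64 Mb had a median of -0.34, with 83.9% below 0, and the 93 after 90 Mb a median of -0.31, with 80.6% below 0. Over the 13745 protein-coding genes on other chromosomes the median was 0.03, and 46.1% lay below 0. Chromosome 14 as a whole had the lowest median of the chromosomes, -0.35 over 441 genes. Chromosomes 6, 3 and 4 came next, at -0.26, -0.24 and -0.22, with 73.1%, 67.4% and 67.9% of their genes below 0. The highest medians were those of chromosomes 9 and 22, both 0.18. A lower share in MIP/5FU was thus common to the genes of the whole chromosome in these libraries, and the medians before and after the stretch differed from its own by little (-0.04 and -0.07, stretch minus outside). No test of the difference between the stretch and the rest was possible with 1 library per line.

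**Figure D1:**
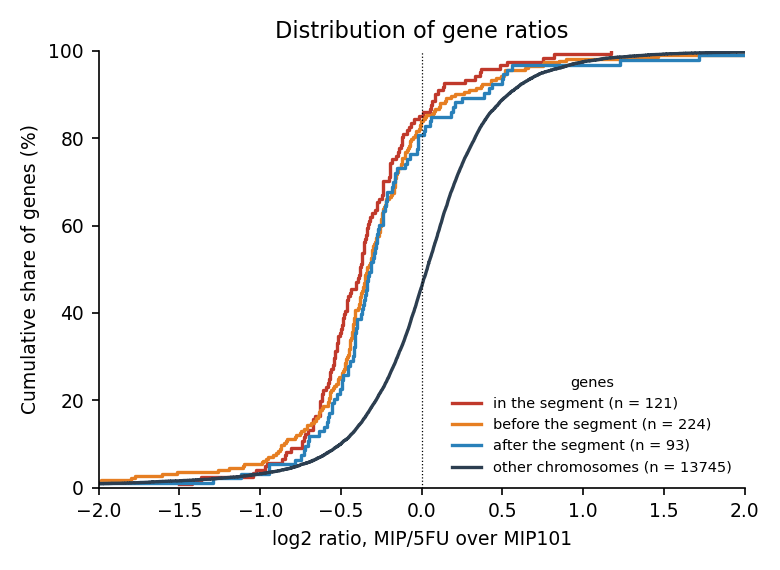
Cumulative share of genes (y axis, percent) against the log2 ratio of MIP/5FU over MIP101 (x axis, shown from -2 to 2) for the 121 genes of the stretch, the 224 and 93 genes before and after it on chromosome 14, and the 13745 genes on other chromosomes. The 3 curves of chromosome 14 run close together, with medians of -0.38, -0.34 and -0.31, to the left of the curve of the other chromosomes, whose median is 0.03.

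Single genes at the ends varied. Just before 64 Mb, MTHFD1, a trifunctional folate enzyme, had 84117 and 38692 reads (log2 ratio -0.25), and AL161756.6 had 442 and 262 (0.11). Just inside, AKAP5, which anchors protein kinase A, had 1265 and 420 (-0.72), and ZBTB25, a zinc finger protein, 3281 and 1524 (-0.24). There the ratio of ZBTB25 inside was as near to 0 as that of MTHFD1 outside. At the other end, C14orf102 (now NRDE2) had 2534 and 986 reads (-0.49) inside, while TTC7B had 607 and 277 (-0.26) and AL122020.5 had 537 and 297 (0.01) outside. At this end both genes outside were nearer to 0 than C14orf102. Outside the stretch lay the larger single differences of the chromosome. Among genes with at least 500 reads, PYGL, the liver glycogen phosphorylase, had the lowest ratio of the rest (-3.07, with 10379 and 679 reads) and LRRC16B the highest (2.14, with 174 and 420). Ratios of the stretch ran from -1.50 to 1.17.

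**Figure D2:**
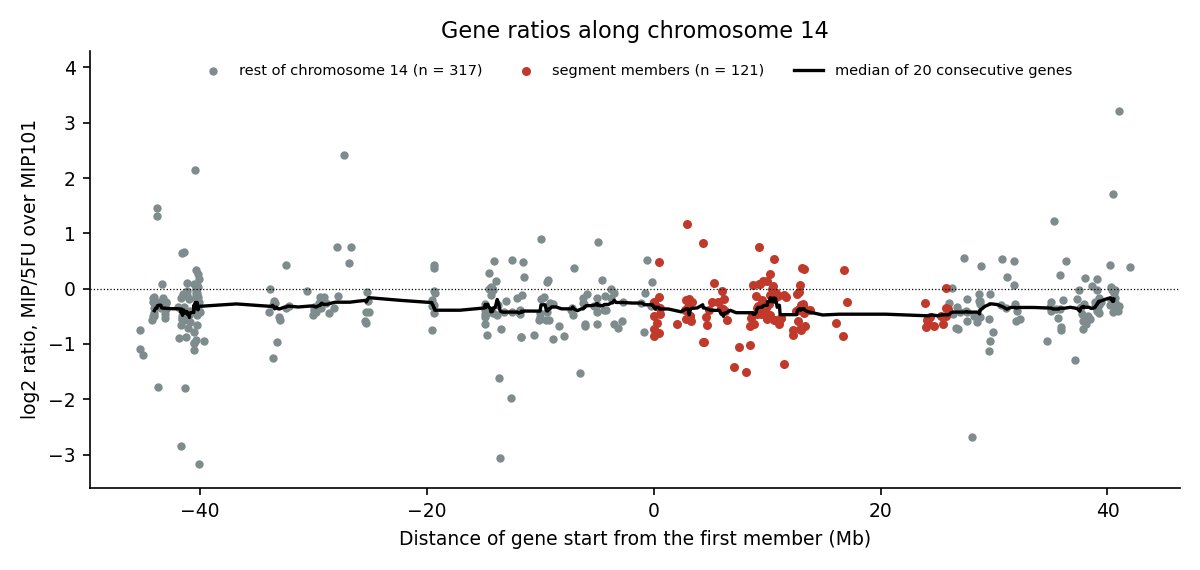
Log2 ratio of MIP/5FU over MIP101 (y axis) of each protein-coding gene of chromosome 14 against the distance of its start from that of the first gene of the stretch (x axis, Mb). Red points are the 121 genes of the stretch, grey points the other 317, and the line is the median over 20 consecutive genes, which stayed below 0 along the chromosome.

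Medians over 20 consecutive genes were below 0 in all 102 windows within the stretch. The lowest of these medians was -0.50, and the highest, from ALDH6A1 to JDP2 (73596644 to 75006908 on hg18), was -0.17. Along the whole chromosome the lowest and highest such windows lay outside the stretch, from C14orf119 to PCK2 at -0.52 and from TITF1 to C14orf106 at -0.16. Within the stretch, windows of 10 genes ranged from -0.65 (PCNX to NUMB) to -0.06 (ISCA2 to ACYP1). Windows of 5, a size added after the data were seen, ranged from -1.05, over MAP3K9, PCNX, SIPA1L1, RGS6 and DPF3, to 0.08, from ACOT2 to PTGR2. In bins of 5 Mb, the 12 genes from 85 to 90 Mb had a median of -0.51 with 10 of them lower, and the 45 genes from 70 to 75 Mb a median of -0.34 with 24 lower and 2 higher.

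The ratio went with the level. In the tercile of genes with fewest reads (under 3520 over both libraries) the median of the stretch was -0.22, in the middle tercile -0.39 and in the top tercile (from 13756 reads) -0.49. The same 3 classes gave -0.14, -0.30 and -0.39 in the rest of chromosome 14, and 0.13, 0.02 and -0.01 on other chromosomes. Medians thus became lower with more reads in all 3 sets, and the part of read number in the ratios was not tested. By the authors' normalized coverage per base, which allows for gene length, the genes with the most RNA included ERH, a small nuclear protein, at 1506 and 1138, the HSP90 co-chaperone AHSA1 at 1215 and 976, and C14orf156 (now SLIRP), an RNA-binding protein of mitochondria, at 1058 and 813. Lowest by this measure was C14orf83 in MIP101 (0.681, against 1.54 in MIP/5FU) and DPF3 in MIP/5FU (0.730, against 2.13 in MIP101). The authors' files mark 113 of the 121 genes as expressed in MIP101 and 110 in MIP/5FU. Those marked in neither library were C14orf83, RGS6, DPF3, PAPLN, HEATR4, ACOT1, C14orf115 and LTBP2, while HSPA2, FOS and C14orf148 were marked only in MIP101.

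**Figure D3:**
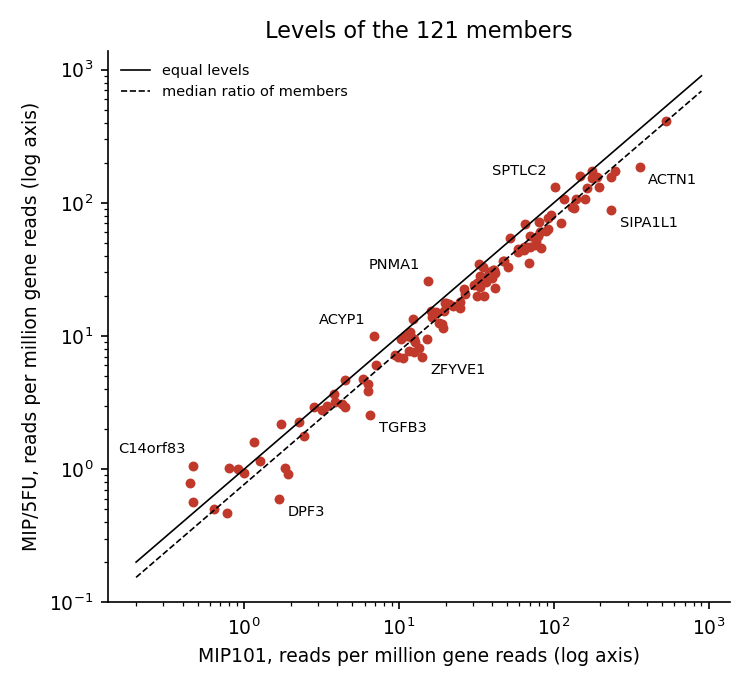
Level in RPM in MIP/5FU (y axis, log scale) against MIP101 (x axis, log scale) for the 121 genes of the stretch. The solid line marks equal levels and the dashed line the median ratio of -0.38, around which most points lie, with SIPA1L1, ACTN1 and TGFB3 below it and SPTLC2, PNMA1 and ACYP1 above the line of equal levels.

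The genes are described next by function. The counts of each list stand beside 60.3% lower and 6.61% higher over the 121 genes, and 18.5% and 19.3% over all protein-coding genes, and its median beside -0.38 and 0.02; no list was tested. Genes of the cytoskeleton and cell adhesion had the lowest median of the lists with at least 3 members, -0.62, and 7 of its 8 members were lower. SIPA1L1, a GTPase-activating protein for Rap that acts on the actin cytoskeleton, had 47153 reads (236 RPM) in MIP101 against 9634 (87.8 RPM) in MIP/5FU, 2.68-fold lower (2.62 to 2.74). ACTN1, the alpha-actinin that cross-links actin at focal adhesions, had 72025 reads (360 RPM) and 20294 (185 RPM), 1.95-fold lower (1.92 to 1.98). Both are among the best-read genes of the stretch, so counting error is small beside the difference. PTPN21, a tyrosine phosphatase of the cell cortex, had log2 ratio -0.70 (-0.41 by the median over its exon junctions), GPHN, the scaffold protein gephyrin, -0.63, and SPTB, a beta spectrin, -0.61. The polarity scaffold MPP5 was at -0.38 and PLEKHH1 at -0.34. PLEKHG3, with a ratio just short of the count at -0.32, completes the list.

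Of 12 genes of endosomes, membrane trafficking and the Golgi, 11 were lower and 1 higher, with a median of -0.57. ZFYVE1, whose product marks membranes where autophagosomes form, had 2825 and 760 reads (14.1 and 6.93 RPM), 2.04-fold lower (1.88 to 2.21). RAB15, a GTPase of endosomal recycling, had 7040 and 2206 reads, 1.75-fold lower (1.67 to 1.84). C14orf133 (now VIPAS39), a subunit of an endosomal sorting complex, was at -0.74 (-0.41 by junctions) and AKAP5 at -0.72. NUMB, an endocytic adaptor that restrains Notch, had 15335 and 5427 reads (-0.63). The p24 cargo receptor TMED10 was 1.48-fold lower (1.46 to 1.51) on 46627 and 17231 reads. ZFYVE26, PCNX, NPC2, VTI1B and SYNJ2BP lay between -0.58 and -0.36. STON2, an adaptor for synaptic vesicle endocytosis, was the member that was higher, 1.26-fold, on 347 and 239 reads. Its ratio of 0.33 was 0.30 with the median ratio of all genes set to 0 and 0.28 with TMM factors, short of the count.

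Of 7 kinase and phosphatase signalling genes 6 were lower, with a median of -0.57. RGS6, a regulator of G-protein signalling, was the lowest at 2.07-fold (1.66 to 2.61) on only 382 and 101 reads. NEK9, a mitotic kinase, had 39180 and 14435 reads, 1.49-fold lower (1.46 to 1.52), and the mitochondrial kinase-like gene ADCK1 was at -0.67. MAP3K9, a mixed-lineage kinase, was at -0.41. RPS6KL1, at -0.12, was not counted. Of 8 genes of the cilium and centrosome 5 were lower, with a median of -0.53, led by EML5, a microtubule-binding protein, at -0.62 and C14orf145 (now CEP128), a centriole protein, also at -0.62. DNAL1, SPATA7 and C14orf179, at -0.31, -0.27 and -0.12, were not counted.

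Genes of RNA processing and ribosome assembly were lower in 10 of 12 cases, with a median of -0.48. ZFP36L1, which binds AU-rich elements and speeds mRNA decay, had 13787 and 3862 reads (68.9 and 35.2 RPM), 1.96-fold lower (1.89 to 2.03). ANGEL1 had 16557 and 5060 reads, 1.79-fold lower (1.74 to 1.85), and the exonuclease gene EXDL2 (now EXD2) was at -0.66. The splicing regulator RBM25 had 49663 and 18899 reads, 1.44-fold lower (1.42 to 1.46). The 2 exceptions were YLPM1, at -0.11, and SFRS5 (now SRSF5), a splicing factor of the SR family, at 0.10 on 29589 and 17404 reads. Neither of the 2 translation initiation genes was counted. EIF2S1, the alpha subunit of eIF2, had 35330 and 16795 reads (-0.21, interval -0.23 to -0.18), and EIF2B2, a subunit of its exchange factor, 10465 and 5939 (0.05).

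Of 17 transcription regulators 10 were lower and 0 higher, with a median of -0.37. DPF3, a subunit of the BAF chromatin remodelling complex, had the lowest ratio of the stretch, 2.83-fold lower (2.18 to 3.78), on 338 and 65 reads. GTF2A1, of the general factor TFIIA, had 8353 and 2514 reads, 1.82-fold lower (1.74 to 1.90), and the forkhead factor FOXN3 had 22397 and 7704, 1.59-fold lower (1.55 to 1.64). MAX, the partner of MYC, was at -0.46. The 3 leucine zipper factors of the AP-1 family differed in ratio. BATF was at -0.63 on 902 and 319 reads, whereas JDP2 was at -0.14 on 2345 and 1167. FOS, an immediate early gene, had only 199 and 103 reads, and its interval (-0.44 to 0.27) includes 0. Nearest to equal levels or above were C14orf43 (now MIDEAS), of a histone deacetylase complex, at 0.08, and LIN52, of the DREAM complex, at 0.13.

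Mitochondrial enzymes and assembly factors were lower in 6 of 10 cases, with a median of -0.34. ADCK1 (1.59-fold, 1.49 to 1.71) and ISCA2, of iron-sulfur cluster assembly (1.45-fold, 1.37 to 1.55), had the lowest ratios by gene reads, followed by ALDH6A1, of valine breakdown, at -0.44. By the median over junctions ADCK1 was at -0.28, short of the count, and ISCA2 at -0.33, so neither the call of ADCK1 nor this order held there. DLST, a subunit of the oxoglutarate dehydrogenase complex, had 175 and 174 RPM (-0.01, interval -0.04 to 0.01), the gene of this list nearest to equal levels. ARG2, the mitochondrial arginase, was at -0.18 by reads and 0.07 by junctions. Of 9 genes of lipid and sterol handling 6 were lower and 1 higher, with a median of -0.46. C14orf1 (now ERG28), a scaffold of sterol synthesis, was 1.45-fold lower (1.41 to 1.49), and NPC2, which carries cholesterol out of lysosomes, 1.44-fold (1.40 to 1.48). The retinol dehydrogenase RDH11 had 26343 and 10280 reads, 1.40-fold lower (1.37 to 1.44). The neighbouring acyl-CoA thioesterase genes ACOT1 and ACOT2 were at -0.46 (-1.19 by exon regions) and -0.34, but their sequences are close, so how reads were split between them is uncertain. ACOT1 also overlaps HEATR4 on the other strand. SPTLC2, the member of this list that was higher, is described with the exon data.

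The 6 genes of glycosylation and the secretory pathway had a median of -0.38, with 4 lower. Beside TMED10 these were ENTPD5, a nucleoside diphosphatase of the endoplasmic reticulum, at -0.39 (-0.21 by junctions, short of the count), TMED8 at -0.38 and the O-mannosyltransferase POMT2 at -0.37. SEL1L, of protein degradation at the endoplasmic reticulum, was at -0.24 and not counted. Of 5 proteasome, chaperone and degradation genes 2 were lower, with a median of -0.29. HSPA2, a heat shock protein of the HSP70 family, was at -0.85 on 369 and 112 reads, and it too has close paralogs. PSMC1, an ATPase subunit of the proteasome, had 32924 and 14114 reads, 1.28-fold lower (log2 ratio -0.35, from -0.38 to -0.33), and was at -0.30 by exon regions, short of the count. AHSA1, at -0.29 (-0.32 to -0.27) on 38087 and 17053 reads, was not counted.

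The 4 secreted and matrix proteins split evenly. TGFB3, a ligand of the TGF-beta family, had 1308 and 278 reads (6.54 and 2.53 RPM), 2.58-fold lower (2.26 to 2.95). VASH1, vasohibin, had 2702 and 885 reads, 1.67-fold lower (1.55 to 1.81). The intervals of PAPLN (0.06, from -0.10 to 0.22) and LTBP2 (0.14, from -0.22 to 0.48) include 0. Of 3 DNA repair genes TDP1, which removes protein adducts from DNA ends, was lower at 1.55-fold (1.49 to 1.61), and ALKBH1 (-0.28) and RAD51L1 (now RAD51B, -0.24) were not counted. Redox and detoxification genes stood nearest to 0, with a median of -0.06 over 5, 1 lower (RDH11) and 1 higher (GPX2). Apart from these 2, ARG2 was at -0.18, GSTZ1, of tyrosine breakdown, at -0.06, and PTGR2, a prostaglandin reductase, at 0.08 (-0.11 by junctions).

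**Figure D4:**
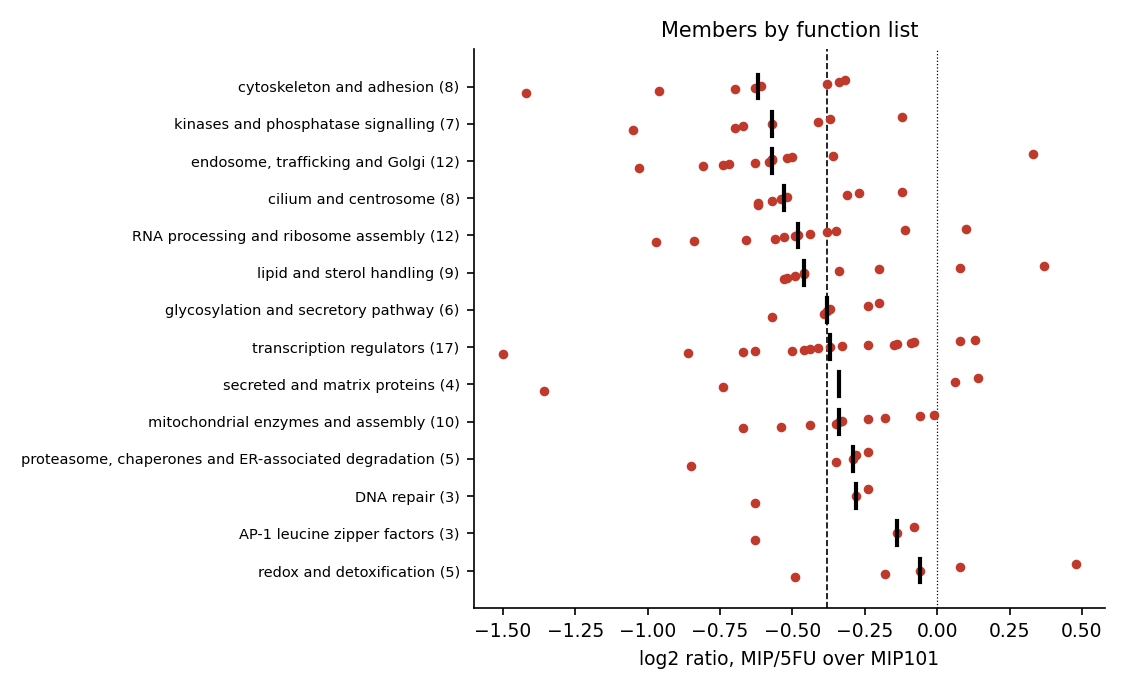
Log2 ratio of MIP/5FU over MIP101 (x axis) of the members of each function list with at least 3 members (y axis, number of members in brackets). Each point is a gene and each short bar the list's median; the dashed line is the median of all 121 genes (-0.38) and the dotted line equal levels, and list medians run from -0.62 for cytoskeleton and adhesion to -0.06 for redox and detoxification.

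All 8 genes counted as higher are named here. GPX2, C14orf83, C14orf181, C14orf178 and STON2 had fewer than 1000 reads over both libraries. PNMA1, a paraneoplastic antigen gene, had 3081 and 2838 reads (15.4 and 25.9 RPM), 1.68-fold higher. ACYP1, an acylphosphatase, had 1377 and 1088 reads (6.88 and 9.92 RPM), 1.44-fold higher. These were the 2 highest with more than 2000 reads. GPX2, the gastrointestinal glutathione peroxidase, had 230 and 176 reads, 1.40-fold higher, and SPTLC2 20240 and 14314, 1.29-fold higher. C14orf83 (now TMEM229B) had 94 and 116 reads, 2.25-fold higher, and was the gene at least 2-fold higher. C14orf181 had 89 and 86 reads (0.82) and C14orf178 had 159 and 112 (0.36). The low numbers of reads leave the last 3 poorly placed. The interval of C14orf83 runs from 0.77 to 1.58, that of C14orf181 from 0.37 to 1.26 and that of C14orf178 from 0.00 to 0.72. C14orf178 also overlaps SNW1 (16247 and 6583 reads) on the other strand, and the library protocol as described marks no strand. C14orf83, C14orf181 and C14orf178 were named after their values were seen.

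Head-to-head pairs were defined by the distance between start sites alone, and sharing of a promoter was not measured. Start sites lay within 1000 bp of each other in 12 pairs, with FCF1 in 2 of them. The 2 genes of a pair differed by 0.30 in log2 ratio at the median, against 0.32 over the 120 pairs of neighbouring genes in order of start, so head-to-head pairs were about as far apart as any neighbours. Both genes lay below 0 in 8 pairs, and the intervals overlapped in 4. The sequence between the 2 start sites, up to 250 bases, is shown for 3 pairs with overlapping intervals and 2 without, from RefSeq promoter windows on GRCh38.p14, plus strand, 5′ to 3′, with the gene on the minus strand to the left. Capitals mark the letters GGGCGG (as in sites of SP1), CCAAT (the CCAAT box), CCGGAAG (as in sites of ETS factors such as GABPA) and TATAAA (the TATA box), each searched on both strands.
NPC2 and ISCA2, chr14:74493515-74493764: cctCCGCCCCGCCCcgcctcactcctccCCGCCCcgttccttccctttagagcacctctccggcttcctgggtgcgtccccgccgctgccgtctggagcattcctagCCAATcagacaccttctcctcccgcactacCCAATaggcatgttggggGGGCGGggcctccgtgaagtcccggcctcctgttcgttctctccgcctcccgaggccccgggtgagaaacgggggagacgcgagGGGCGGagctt
C14orf1 and TTLL5, chr14:75660996-75661245: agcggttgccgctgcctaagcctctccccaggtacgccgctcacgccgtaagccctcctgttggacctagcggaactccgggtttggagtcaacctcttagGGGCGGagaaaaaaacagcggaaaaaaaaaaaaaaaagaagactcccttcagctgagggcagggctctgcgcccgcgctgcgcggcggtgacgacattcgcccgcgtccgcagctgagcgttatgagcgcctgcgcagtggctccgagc
ALKBH1 and C14orf156, chr14:77708024-77708102: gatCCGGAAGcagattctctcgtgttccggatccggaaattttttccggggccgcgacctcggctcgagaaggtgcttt
KIAA0317 and FCF1, chr14:74713081-74713143: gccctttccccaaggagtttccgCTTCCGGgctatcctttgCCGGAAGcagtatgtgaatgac
C14orf133 and AHSA1, chr14:77457617-77457866: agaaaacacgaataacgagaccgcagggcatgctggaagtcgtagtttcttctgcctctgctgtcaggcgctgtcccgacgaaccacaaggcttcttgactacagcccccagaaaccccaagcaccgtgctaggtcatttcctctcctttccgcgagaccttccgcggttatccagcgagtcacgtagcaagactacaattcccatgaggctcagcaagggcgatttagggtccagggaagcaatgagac

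NPC2 had 18289 and 6967 reads (-0.52) and ISCA2 3639 and 1371 (-0.54), and their sequence, 68.8% G and C, holds 5 matches to GGGCGG and 2 to CCAAT. C14orf1 had 17810 and 6741 reads (-0.53) and TTLL5, a tubulin polyglutamylase gene, 12933 and 4891 (-0.54), with 1 match to GGGCGG in the 250 bases shown of the 369 between them. ALKBH1 had 4216 and 1903 reads (-0.28) and C14orf156 9342 and 4004 (-0.35, but 0.05 by the median over its junctions), with 1 match to CCGGAAG in 79 bases. In these 3 pairs the 2 genes had nearly equal ratios by gene reads. Across the 63 bases with 2 matches to CCGGAAG, KIAA0317 (now AREL1), a ubiquitin ligase gene, had 18489 and 8372 reads (-0.28) and FCF1, of ribosomal RNA processing, 12866 and 5070 (-0.48). C14orf133 had 3851 and 1264 reads (-0.74) and AHSA1 38087 and 17053 (-0.29). The 250 bases shown of the 265 between them hold none of the 4 letter strings. By gene reads the genes of these last 2 pairs differed beyond counting error, and ALDH6A1 and LIN52 differed more, at -0.44 and 0.13. Junction medians grouped the pairs otherwise. By these C14orf133 (-0.41) and AHSA1 (-0.37) lay close, while KIAA0317 (-0.39) and FCF1 (-0.74) lay apart. NPC2 (-0.55) and ISCA2 (-0.33) were further apart than by gene reads, as were C14orf1 (-0.72) and TTLL5 (-0.56), and ALKBH1 (-0.12) and C14orf156.

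GGGCGG occurs in 56.0% and CCAAT in 34.5% of 250-base windows upstream of 15843 protein-coding starts, and CCGGAAG in 7.22% of 79-base and 6.26% of 63-base windows. Promoter windows from 250 bases before to 50 after the start were matched for 104 of the 121 genes. GGGCGG was in 67.3% of them (58.5% of all 15843), CCAAT in 35.6% (36.4%), CCGGAAG in 22.1% (14.2%) and TATAAA in 6.73% (9.63%). A match describes letters and not a bound site.

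The exon regions of the genes mostly repeated the gene ratio. Exon regions are the parts of exons that the authors' annotation keeps apart, and their reads were estimated from coverage. Of 1230 tested, 90.5% lay below 0, against 52.9% of those of all protein-coding genes. Of 987 exon junctions 89.1% did (57.0% of all). In 65 of the 100 genes with at least 3 tested exon regions every region lay below 0, and in 43 of the 84 with at least 3 junctions every junction did. These reads are those the gene ratios were made of, so they show how evenly a ratio was spread along a gene and are no further support for it. All 22 exon regions of SIPA1L1 lay between -2.12 and -1.23, and the 23 of ACTN1 between -1.09 and -0.80. The 7 of TGFB3 lay between -1.59 and -0.97, and the 4 of ACYP1 between 0.49 and 0.70.

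Few parts of genes departed from their gene. Subtracting a gene's log2 ratio from that of one of its parts gives the splicing index of the part. It was counted from an absolute value of 1 where its interval excluded 0, an interval that leaves 0.1% outside and takes the gene's ratio as fixed. Among exon regions 1 was higher and 2 were lower (0.165% and 0.112% of those of all protein-coding genes). Among junctions 1 was higher and 0 lower (0.056% and 0.0998%), among 145 exon-intron boundaries 0 and 1 (0.736% and 0.120%), and among 125 transcripts 1 and 0 (0.531% and 0.214%). Counts this small cannot be placed above or below the background, and nothing is read from them. In ZBTB1, a zinc finger repressor, exon region 5a (64068332 to 64070161 on hg18, 37 of its 1830 bases coding) had 117 and 138 read equivalents, while the gene had 7268 and 2811 reads, an index of 1.61 (1.00 to 2.22). The transcript that holds it, ENST00000358738, had 176 and 158, an index of 1.22. In ZFYVE26, an endosomal zinc finger protein, region 43a (67265681 to 67266289) had 82 and 10, an index of -1.53 (-3.55 to -0.12). This region also lies within the bounds of RDH12 (67258943 to 67270920), a gene with 43 and 20 reads. The library protocol marks no strand, so the gene its reads came from is uncertain. The GPHN junction of exons 16 and 17 had 6 and 14 reads, an index of 2.66 with a wide interval (0.39 to 5.63). In HEATR4, a gene with only 252 and 126 reads, region 16a had 119 and 28 (-1.07). The boundary at its edge, which overlaps region 16a, had 111 and 24 (-1.19), so these 2 counts are not independent. HEATR4 also overlaps AC005280.3 and ACOT1, so the origin of its reads is uncertain. HEATR4 was named to complete the count.

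SPTLC2, a subunit of serine palmitoyltransferase, the first enzyme of sphingolipid synthesis, was higher by its total reads but not in most of its exon regions. Exon regions 1 to 9, at the 5′ end (77088192 to 77152863 on hg18, minus strand), had 6869 and 3380 read equivalents, a log2 ratio of -0.16 (-0.22 to -0.10), with 8 of the 9 below 0. Regions 10 to 12, at the 3′ end (77043025 to 77057677), had 13381 and 10944, a ratio of 0.58 (0.54 to 0.61), with all 3 between 0.54 and 0.67. The last region is 5475 bases long, 120 of them coding, and holds most of the gene's reads (12383 and 10113). Junctions followed less clearly. The 8 from exon 1 to exon 9 all lay below 0, at -0.57 to -0.04. From there on, the junction of exons 9 and 10 had 109 and 75 reads (0.33, from -0.12 to 0.77), that of exons 10 and 11 had 99 and 105 (0.95, from 0.54 to 1.36), and that of exons 11 and 12 had 138 and 92 (0.29, from -0.11 to 0.67), so of these 3 only that of exons 10 and 11 had an interval excluding 0. The median over junctions was therefore -0.18 and that over exon regions -0.14, against 0.37 for the gene. This split was noticed in the data and then sought in all genes. With at least 3 regions on each side, the largest step between the 2 sides was 0.73 in SPTLC2, the largest of the 76 genes of the stretch that could be scanned, and 0.92% of 8481 protein-coding genes had a step at least that large. A step of 0.5 or more occurred in 4 of the 76 (5.26%, against 3.43% of all), the others being SPTB at 0.70, TMEM63C at 0.56 and C14orf102 at 0.50.

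**Figure D5:**
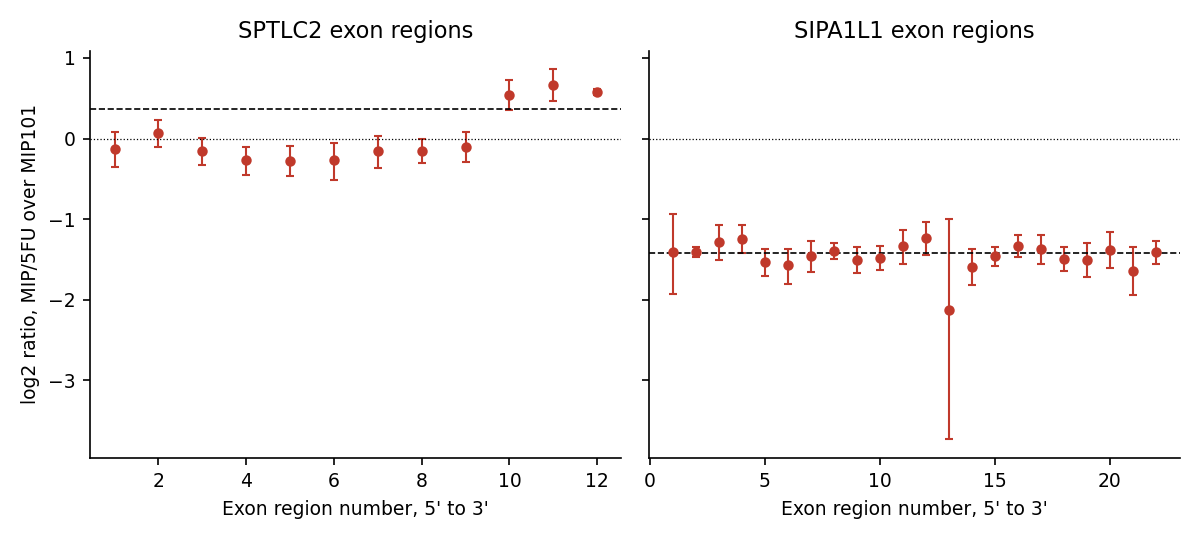
Log2 ratio of MIP/5FU over MIP101 (y axis) of each tested exon region of SPTLC2 (left) and SIPA1L1 (right), numbered from 5′ to 3′ (x axis), with 95% counting intervals as bars. The dashed line is the gene's own ratio and the dotted line equal levels. Regions 1 to 9 of SPTLC2 lie near or below 0 and regions 10 to 12 between 0.54 and 0.67. All 22 regions of SIPA1L1 lie between -2.12 and -1.23, with the gene's ratio at -1.42.

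Strand and overlap were examined because the library protocol marks no strand. The 62 genes on the plus strand had a median of -0.34 and the 59 on the minus strand one of -0.46. Overlap was sought only with genes of at least 100 reads over both libraries. The 27 genes that overlap such a gene had a median of -0.35, and the other 94 had -0.39. Of the 26 genes in no function list, WDR21A (now DCAF4) was at -0.67 and ATP6V1D, a subunit of the vacuolar proton pump, at -0.54 on 7932 and 2983 reads. NRXN3, a neurexin gene, was at -0.39 on 9602 and 4003 reads, but at -0.09 by the median over its 4 junctions, short of the count.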

How the data were processed

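Polyadenylated RNA of MIP101 and MIP/5FU was read as paired 42-mers or 36-mers, 1 library per line. Per the labels' protocols, cDNA was primed with random hexamers and amplified by 10 PCR cycles, with no step that marks strand. Reads were placed on Ensembl gene features, release 53 per the file names, on hg18 per the submitters' processing notes. The read aligner was not given in the sources used here.

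The authors deposited raw read counts for genes, junctions and boundaries, with no normalization. They also deposited coverage (bases of reads summed over a feature) for all kinds of feature, and a normalized coverage signal per base, scaled by 1 factor per library for genes and exon regions. Exon regions and transcripts have no counts, although the design had assumed them, so their coverage was divided by the mean number of bases in a read (40.4 for MIP101, 39.8 for MIP/5FU) to give read equivalents.

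Computed here were log2 ratios of shares of gene reads with exact conditional binomial 95% intervals, and splicing indices with intervals that leave 0.1% outside. Indices needed a gene of 200 reads in total and 10 per library. They also needed 20 reads for junctions and boundaries and 50 read equivalents for exon regions and transcripts. Calls at a log2 ratio of 0.32 and at 2-fold needed an interval excluding 0. The genes, function lists, rules and alternatives were chosen with earlier results of these data known. Named were the 12 lowest and 12 highest genes with at least 500 reads, the 6 with most reads, in each list the 3 with the largest ratio and the one with most reads, the genes at the ends, and genes with counted features. Genes of the head-to-head pairs, genes of small counts and others given with a list or its count were named beyond that rule, after their values were seen. Promoter windows came from RefSeq on GRCh38.p14, matched by symbol. Scripts were checked on simulated data. Alternatives were other scalings, the authors' normalized coverage, medians over junctions or exon regions, other read minima, overlaps, edges, windows and index sizes. TMM factors came from edgeR 4.0.16 in R 4.3.3. All else ran in Python 3.11.15 (scipy 1.17.1, numpy 2.4.6, pandas 2.3.3), with figures by matplotlib 3.10.9. Sequence reads were not analysed here. A few genes and 1 list chosen by this rule are left out of the text.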

Additional observations from a re-analysis of the deposited data

How the results depend on the processing

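The median log2 ratio of the genes of the stretch (-0.38) was -0.41 with the median ratio of all genes set to 0, -0.43 with TMM factors, -0.41 by the authors' normalized coverage, -0.50 by junction medians, -0.45 by exon region medians, -0.37 with no read minimum, -0.39 and -0.41 from 500 and 2000 reads, -0.39 without overlapping genes and -0.37 from 66 to 88 Mb. The scalings themselves shifted ratios by -0.03 (median ratio) and -0.05 (TMM). The difference from the rest of chromosome 14 (-0.05) was -0.06 by normalized coverage, -0.12 by junctions, -0.09 by exon regions, -0.07 with no minimum and -0.03 from 66 to 88 Mb. Genes counted as lower numbered 56 to 78 over these settings (73 as reported). Those counted as higher (8) were 5 with TMM factors, 1 by junctions, 1 by exon regions, 4 from 500 reads and 3 from 2000. Genes at least 2-fold lower (5) were 8 with no minimum, 3 from 500 reads and 2 from 2000. A read minimum and medians over features leave fewer genes, and otherwise the cause was not tested.

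The lowest window of the chromosome (-0.52) was -0.70 with 10 genes, -0.48 with 40 and -1.05 with 5. The highest (-0.16) was 0.00, -0.25 and, reversed, 0.75. The windows of 5 were added after the data were seen. With 40 genes (NEK9 to FOXN3) and with 5 (MAP3K9 to DPF3) the lowest window lay within the stretch. With 10 (THTPA to PCK2) it lay outside, and the highest lay outside at every size. Counted junctions went from 1 to 0 with at least 50 reads, and counted boundaries and transcripts each from 1 to 0 at an index of 1.5. Junction median and gene ratio lay on the same side of 0 in 79 of the 84 genes with at least 3 junctions. Of the counted genes named in the text, SPTLC2 reversed, to -0.18 by junctions and -0.14 by exon regions. C14orf156, counted as lower at -0.35, reversed to 0.05 by junctions. Of named genes not counted, ARG2 (-0.18) was 0.07 and PTGR2 (0.08) was -0.11 by junctions, and AL161662.6 (0.01) was -0.03 to -0.04 under the other scalings. For the named genes, the settings tried kept the ratio within its counting interval in 193 cases and moved it outside in 82.

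No paired analysis was possible because each line has 1 library. The intervals of 12 of the 121 genes include 0, FOS, LTBP2 and PAPLN among them.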
